A study of Mus musculus with 4 samples.

Results

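Voltage-gated sodium and calcium channels open when the membrane of a neuron depolarizes. Sodium channels carry the rising phase of the action potential, and calcium channels turn electrical activity into transmitter release, gene regulation and firing patterns. Each channel has a large pore subunit that holds the voltage sensors, with smaller partners that set its trafficking and gating. The NALCN channel is a related pore that leaks sodium at rest and is held in a complex with Unc79 and Unc80.

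The genes described here were taken from the deposited table by symbol. They were every sodium channel pore and beta subunit (Scn), every calcium channel pore, alpha2delta and beta subunit (Cacna1, Cacna2d and Cacnb), the NALCN complex, and the FGF homologous factors Fgf11 to Fgf14, which bind sodium channels inside the cell and are not secreted. Cacng genes were not included. This gave 39 genes of the 55487 listed, and 35 of them passed the filter of at least 1 TPM in at least 2 libraries. None of the 35 passed it through 1 group alone.

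RNA came from sorted nuclei of adult wild-type (WT) mouse brain, taken whole except for the olfactory bulb. Excitatory neuron nuclei gave 2 libraries and inhibitory neuron nuclei gave 2 libraries, all listed as batch 1. This number alone does not say whether they were prepared and sequenced together. No treatment is given in the labels, the age is given only as adult, and neither the markers of the sort nor the animals behind each replicate are stated in the labels. P-values therefore measure only the spread between these libraries, which may be technical. TPM, an abundance corrected for transcript length and scaled to the same total in every library, keeps no sequencing depth, so the depth is unknown and no counting interval was computed. Since the values are per length, the levels of different genes can be set side by side, with 1 limit. The RNA is nuclear, and whether unspliced reads were counted is not given. The median span of the channel genes was 130 kb, against 8.96 kb over all genes tested. The part of gene span in their levels was not tested. RNA of pooled nuclei cannot tell fewer nuclei of a type from less RNA per nucleus.

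The libraries carried the transcripts of their labels. Both groups also carried those of several brain regions, with higher sums in the inhibitory libraries. Markers of excitatory identity summed to 1108 and 1209 TPM in excitatory against 373 and 379.9 TPM in inhibitory libraries, with 9 of 10 tested higher in excitatory nuclei and Slc17a6, a glutamate transporter gene of thalamus and brainstem, higher in inhibitory nuclei. Inhibitory identity markers summed to 138 to 154 against 884 to 899 TPM, with 10 of 10 tested higher in inhibitory nuclei. Fast-spiking and somatostatin interneuron markers (7 of 9 higher in inhibitory nuclei, with Satb1 higher in excitatory nuclei and Pvalb not called) summed to 256 to 285 against 738 to 761 TPM. Striatal projection neuron markers (11 of 12 higher in inhibitory) summed to 538 to 569 against 1713 to 1753 TPM, thalamic markers (7 of 9) to 185 to 196 against 462 to 556 TPM, Purkinje cell markers (8 of 9) to 492 to 497 against 994 to 1054 TPM and cerebellar granule cell markers (6 of 8) to 165 to 169.5 against 285 to 310.3 TPM. None of the 8 astrocyte, 8 oligodendrocyte, 6 oligodendrocyte precursor, 7 microglia or 2 vascular markers tested was called. No marker on these lists was at 0 in all libraries. Their summed levels were 55.8 to 91.3 TPM for astrocyte, 291 to 464 TPM for oligodendrocyte, 29.7 to 47.2 TPM for oligodendrocyte precursor, 61.1 to 88.5 TPM for microglia and 5.13 to 7.14 TPM for vascular markers over the 4 libraries. Slc17a6, which is on both the excitatory and the thalamic list, stood at 22.4 and 20.3 TPM in excitatory against 88.0 and 78.4 TPM in inhibitory libraries. The inhibitory libraries thus held more of this glutamatergic marker, and which nuclei carried it was not tested. Excitatory and inhibitory are used here as the names of the sorted groups. The regional lists moved with the comparison of these groups, and their part in the channel results was not tested.

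Channel genes were abundant in both populations and made up 0.424% and 0.462% of the TPM in excitatory and 0.429% and 0.450% in inhibitory libraries. The median tested channel gene had a mean of 109 TPM, against 12.2 TPM over all genes tested. In all, 22 of the 39 were at 50 TPM or more in every library. The most abundant in excitatory nuclei were Cacna2d1 (345 and 364 TPM), Scn2a (365 and 338 TPM), Unc80 (310.2 and 365 TPM) and Cacna1e (311 and 355 TPM), whose values overlap. In inhibitory nuclei they were Scn2a (354 and 315 TPM), Unc80 (292 and 317 TPM) and Cacna1a (249 and 328 TPM), which also overlap.

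**Figure D1:**
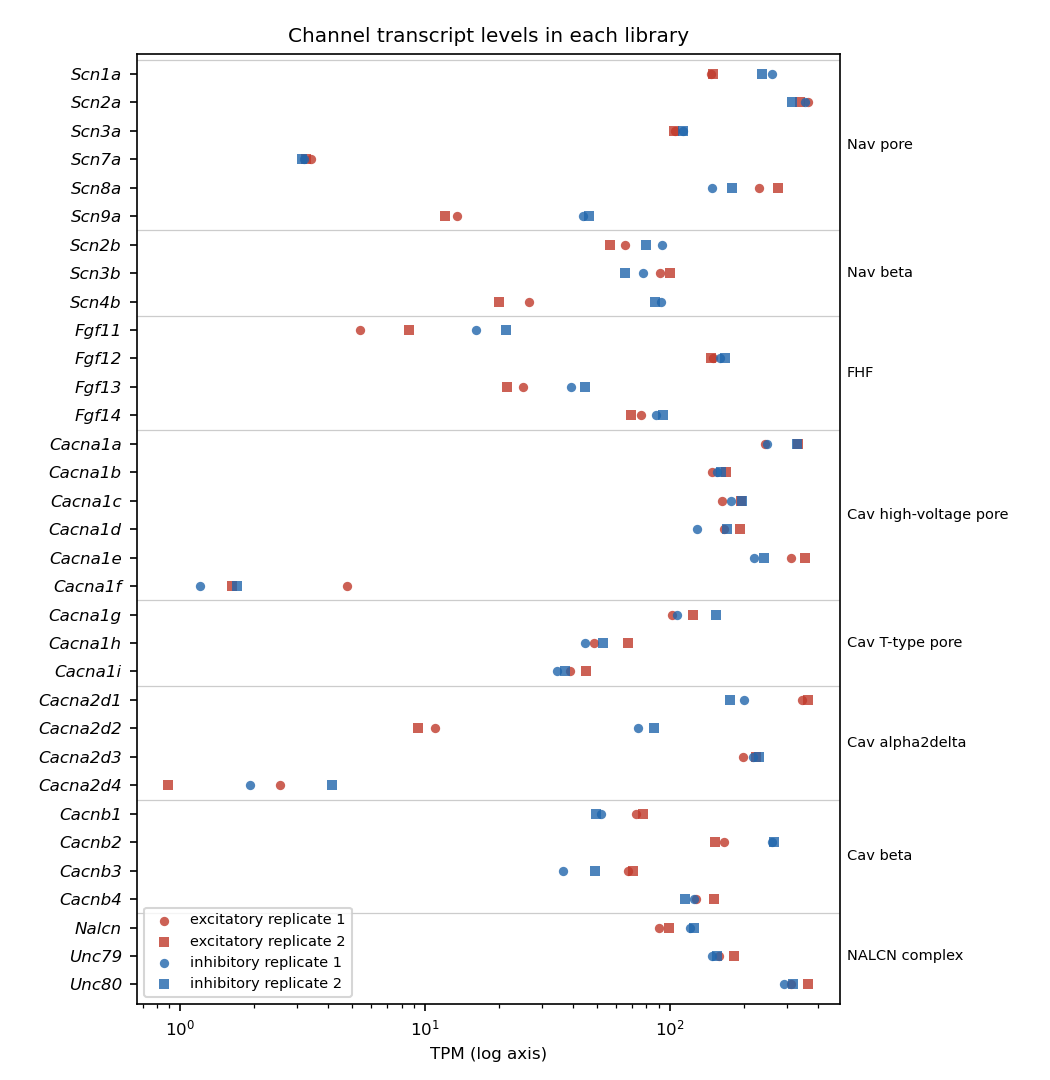
Level of 33 of the tested channel genes in TPM (log axis), with 1 point per library (red excitatory, blue inhibitory; circles replicate 1, squares replicate 2), grouped by role. Cacna2d2, Scn9a and Scn4b stand apart between the groups, while those of Scn2a, Cacna1b and Cacna1a overlap.

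Of the 35 genes tested, 5 were called toward excitatory nuclei (Cacna2d1, Cacnb3, Scn8a, Cacnb1 and Cacna1e), 7 toward inhibitory nuclei (Cacna2d2, Scn4b, Scn9a, Fgf11, Fgf13, Scn1a and Cacnb2) and 23 were not called (limma, Benjamini-Hochberg adjusted p under 0.05 over all 26055 genes tested). The called share was 34.3%, against 12.0% of all genes tested (5.43% toward excitatory and 6.62% toward inhibitory) and 15.6% of the genes that pass a filter of at least 5 TPM. The 2 groups did not overlap for 23 of the 35 genes (65.7%), against 56.2% of all genes tested. Of these, 10 lay higher in excitatory and 13 in inhibitory libraries, against 23.0% and 33.3% of all genes. The median log2 fold change of the 35 genes was -0.0037, against -0.07 over all genes, and the median size of change was 0.38 against 0.30. Changes thus went in both directions within the family. Log2 fold changes are given as excitatory minus inhibitory with ± SE after adding 1 TPM, which understates the change of low genes. With any 1 of the 4 libraries left out, limma called 0 channel genes on the same genes (6 toward excitatory and 9 to 11 toward inhibitory at an unadjusted p under 0.05), and all 12 kept their direction. These fits called 0 of all 26055 genes too. With the filter applied again to the 3 libraries left, it called 9, 7, 8 and 8 of the 12 (without excitatory replicate 1 or 2, or inhibitory replicate 1 or 2).

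**Figure D2:**
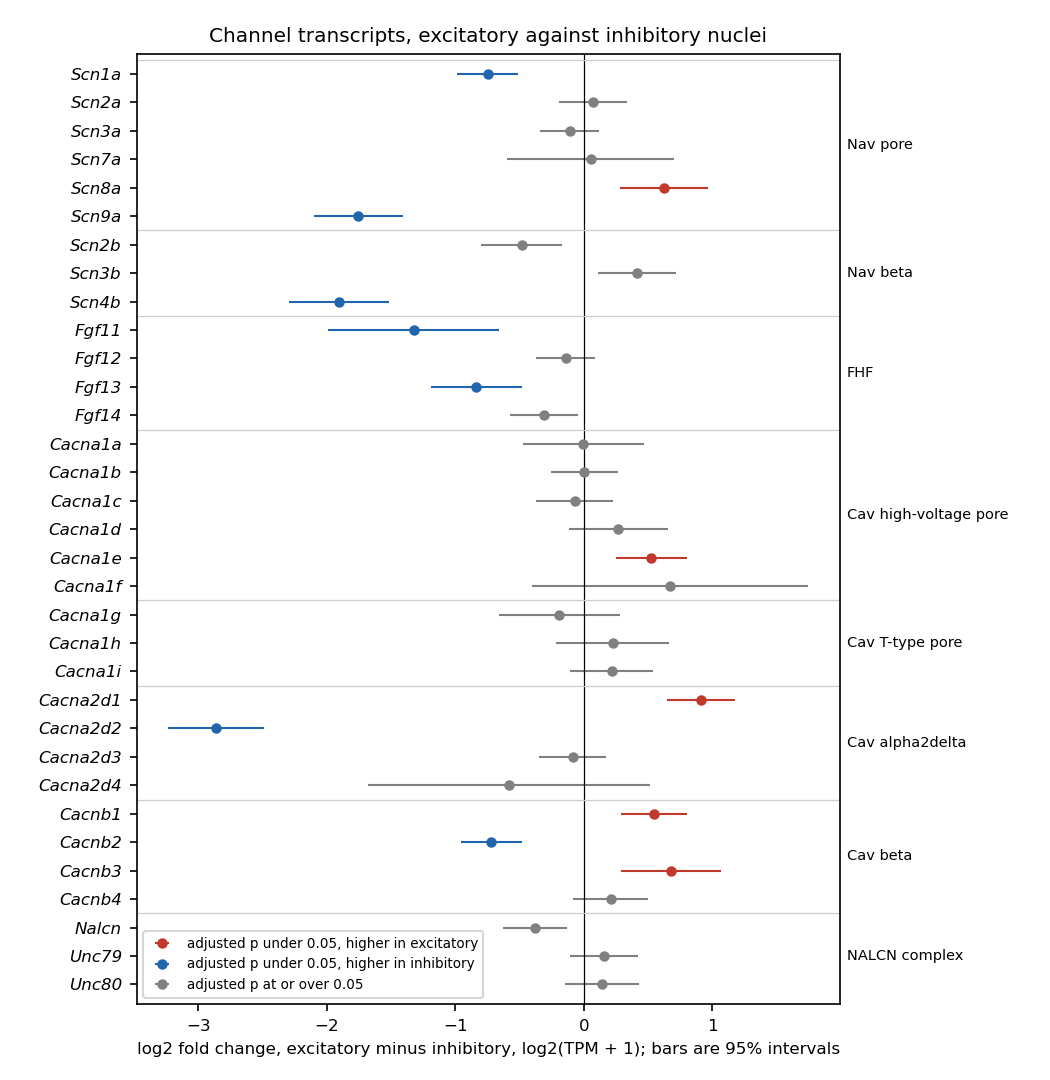
Log2 fold change of 33 of the tested channel genes, excitatory minus inhibitory, on the log2(TPM + 1) scale. Points are limma estimates from 2 against 2 libraries and bars are 95% intervals; the 5 red genes were called toward excitatory and the 7 blue genes toward inhibitory nuclei, with Cacna2d2 farthest from 0 at -2.86.

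The regions upstream of 4 of these genes are shown as examples from both sides of the comparison, chosen for their difference in CpG, the dinucleotide at which mammalian DNA is methylated. Each is the 250 bases before a RefSeq transcription start on GRCm38.p6, written 5′ to 3′ on the strand of the gene, with each CpG in capitals. Cacna2d1 and Scn8a were higher in excitatory nuclei, and Scn1a and Scn9a were higher in inhibitory nuclei.
Cacna2d1, chr5:15934441-15934690, plus strand: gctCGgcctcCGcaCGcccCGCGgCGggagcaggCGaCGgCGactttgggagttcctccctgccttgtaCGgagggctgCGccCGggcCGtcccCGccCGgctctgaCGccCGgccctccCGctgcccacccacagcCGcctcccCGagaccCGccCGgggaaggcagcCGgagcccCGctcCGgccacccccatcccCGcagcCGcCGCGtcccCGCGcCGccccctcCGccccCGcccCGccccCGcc
Scn8a, chr15:100870395-100870644, plus strand: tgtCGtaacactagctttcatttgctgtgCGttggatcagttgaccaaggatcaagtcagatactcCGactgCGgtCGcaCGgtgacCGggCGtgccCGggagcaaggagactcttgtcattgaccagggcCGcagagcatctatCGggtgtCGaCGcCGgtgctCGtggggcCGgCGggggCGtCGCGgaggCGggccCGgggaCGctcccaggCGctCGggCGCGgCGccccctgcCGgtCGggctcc
Scn1a, chr2:66440838-66441087, minus strand: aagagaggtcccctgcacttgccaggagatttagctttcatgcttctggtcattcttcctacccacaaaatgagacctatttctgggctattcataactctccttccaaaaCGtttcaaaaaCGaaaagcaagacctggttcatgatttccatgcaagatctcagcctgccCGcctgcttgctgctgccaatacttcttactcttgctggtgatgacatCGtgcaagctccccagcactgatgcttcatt
Scn9a, chr2:66634963-66635212, minus strand: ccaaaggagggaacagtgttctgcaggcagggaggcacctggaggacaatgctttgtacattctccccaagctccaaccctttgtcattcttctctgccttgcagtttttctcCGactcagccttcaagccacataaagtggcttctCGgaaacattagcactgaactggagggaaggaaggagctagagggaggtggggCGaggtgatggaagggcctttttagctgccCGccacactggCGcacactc
The Cacna2d1 window holds 36 CpG and the Scn8a window 30, while the Scn1a window holds 4 and the Scn9a window 5. Most of the Scn1a window is also exon of the opposite-strand transcript Gm13629 in GENCODE. A second RefSeq start of Scn8a has a window with 9 CpG. The contrast of these 4 examples did not hold for every called gene. The median was 16 CpG over the 8 windows of genes called toward excitatory nuclei. It was 6 CpG over the 11 windows of genes called toward inhibitory nuclei. These medians include the 4 examples, and both sides held windows with few and with many CpG. Of the other genes higher in inhibitory nuclei, Cacna2d2 has a window with 34 CpG, Scn4b one with 23, Cacnb2 windows with 30 and 3, Fgf13 windows with 2, 33, 6 and 31, and Fgf11 one with 5. Of the other genes higher in excitatory nuclei, Cacnb1 has windows with 26 and 1, Cacnb3 windows with 2 and 23, and Cacna1e one with 6. Several of these windows also hold GENCODE exon bases. Exon fills all 250 bases of the Cacna2d2 and Cacna1e windows and of the Cacnb2 window with 30 CpG. It covers 229 bases of the Scn4b window and 227 of the Fgf13 window with 33 CpG. RefSeq gave windows for 31 of the 39 genes, 47 windows in all because several genes have more than 1 start, and their median was 8 CpG against 6 over all 32851 windows. Since the study concerns EGR1, a zinc finger transcription factor that binds GC-rich sites, its consensus GCGTGGGCG and the variant GCGGGGGCG were looked for on both strands of these windows. The consensus stood in 1 of the 47 windows (Scn7a, 2.13%) against 0.536% of all windows, and the variant in 4 windows (Cacna1b, Cacna2d1, Cacna2d2 and Scn8a, 8.51%) against 2.57%. Both are GC-rich, and the median GC of the 47 windows was 58.4% against 52.4% over all windows. The part of GC content in these shares was not tested. Of 2 other motifs looked for, TGACGTCA stood in 0 of the 47 windows against 1.55%, and TATAAA in 2 (4.26%) against 12.4%. These are matches of letters, and binding was not measured here.

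Among sodium channel pore subunits, Scn2a was the most abundant in both populations, while Scn8a was higher in excitatory nuclei and Scn1a and Scn9a were higher in inhibitory nuclei. Scn1a, the main sodium channel of many inhibitory interneurons (chromosome 2, 66270778 to 66440840, minus strand, mm10), stood at 146 and 149.6 TPM in excitatory and 259.8 and 238 TPM in inhibitory libraries. Both inhibitory values lie above both excitatory ones, a 1.68-fold difference (log2 fold change -0.75 ± 0.10, limma adjusted p = 0.00820, and 0.0554 when the variance prior had no trend). Scn8a, the channel concentrated at axon initial segments and nodes of Ranvier (chromosome 15, 100869858 to 101045938, plus strand), went the other way, at 229 and 275 against 148 and 179 TPM. The groups do not overlap (0.62 ± 0.14, limma adjusted p = 0.0415), though the call was lost with a pseudocount of 0.1 (adjusted p = 0.0514) or without the trend (0.134). Scn9a, best known from pain-sensing neurons (chromosome 2, 66480080 to 66634962, minus strand), was low in excitatory libraries, at 13.4 and 12.0 TPM, and reached 44.0 and 46.4 TPM in inhibitory ones. That is 3.55-fold higher in inhibitory nuclei (-1.75 ± 0.14, limma adjusted p = 0.00284).

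Scn2a, the channel of unmyelinated axons and of the initial segment, stood at 365 and 338 against 354 and 315 TPM, with overlapping groups and a 95% interval of the log2 fold change from -0.19 to 0.34. Scn3a, a channel more prominent in the embryonic brain, stood at 105 and 104 against 112 and 112 TPM (interval -0.34 to 0.12). Scn7a, an atypical sodium-sensing channel gene, stood at 3.15 to 3.42 TPM in all libraries. Scn4a of skeletal muscle was listed at 0 in all 4 libraries, and the sensory neuron channels Scn10a and Scn11a stood at or under 0.435 TPM, so none of these was tested.

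The pore subunits summed to 865 and 884 TPM in excitatory and 928 and 902 TPM in inhibitory libraries, so the difference lay mostly in their make-up. Within this sum, Scn1a took 16.9% ± 0.0253 of excitatory and 27.2% ± 1.14 of inhibitory transcripts (SD, n = 2), while Scn8a took 28.8% ± 3.21 and 17.9% ± 2.76. Scn9a took 1.46% ± 0.139 and 4.95% ± 0.288. The ratio of Scn1a to Scn8a, which no scaling of a library can change, was 0.637 and 0.545 in excitatory and 1.75 and 1.33 in inhibitory libraries. Scn8a was thus the more abundant of the pair in both excitatory libraries and Scn1a in both inhibitory ones. For any share or ratio that separates 2 against 2 libraries, the exact two-sided permutation test gives p = 0.333, the smallest this design allows.

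Scn3a, Scn2a, Scn1a, Scn9a and Scn7a lie in this order in 1 stretch of chromosome 2, with Csrnp3, Galnt3 and Ttc21b among the genes between Scn2a and Scn1a. The 2 called sodium channel genes, Scn1a and Scn9a, follow each other there. All 19 genes of the table that lie in this stretch were looked at, and 17 were tested. From the left end of Scn1a to the right end of Scn9a, 7 of 7 transcripts were higher in inhibitory nuclei, against 6.62% of all genes tested. The ends of this part were set at these 2 called genes, which are counted among the 7. The count is therefore a description and not a test of the region. In the rest of the stretch, 9 of 10 tested were not called and 1 was higher in excitatory nuclei. The antisense transcript Gm13629 starts 40 bases from the annotated start of Scn1a on the other strand, runs into Scn9a and shares 180 exon bases with it. It stood at 19.8 and 15.1 against 55.4 and 48.4 TPM (-1.53 ± 0.17, limma adjusted p = 0.00556). The kit keeps strand, but the labels do not say that the quantification used it, so the values of Scn9a and Gm13629 cannot be fully told apart. The small transcripts Rpl35-ps1 (-1.63), Gm13627 (-2.13), Gm23046 (-2.005) and Gm13630 (-0.95) lie within Scn1a, Scn9a or Gm13629 and moved the same way on the log2 scale. Gm23046 was under 1 TPM in both excitatory libraries and so entered the test through the inhibitory ones, and whether unspliced reads of the host genes were counted for these transcripts is not given. Between Scn2a and Scn1a lies Galnt3, a glycosyltransferase gene, at 7.43 and 8.90 TPM in excitatory against 0.723 and 0.754 TPM in inhibitory libraries (2.39 ± 0.28, limma adjusted p = 0.00587). It was under 1 TPM in both inhibitory libraries and so entered the test through the excitatory ones.

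**Figure D3:**
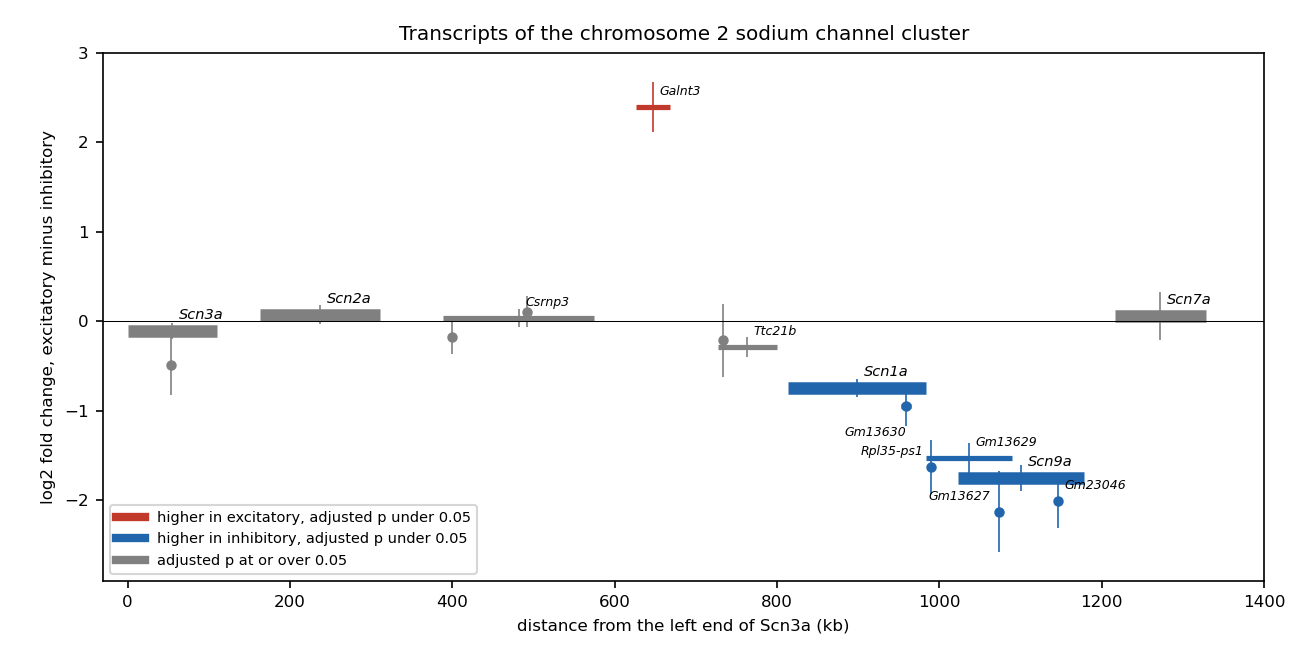
The 17 tested transcripts of the sodium channel cluster, with distance from the left end of Scn3a in kb on the x axis and log2 fold change (excitatory minus inhibitory, log2(TPM + 1)) on the y axis. Bars span each gene (thick for channel genes, dots for short ones) and vertical lines are standard errors; the 7 blue transcripts of Scn1a, Scn9a and the stretch between them all lie below 0, with Scn1a at -0.75 the nearest to it.

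Beta subunits are single-pass membrane proteins that modify sodium channel gating and bind other adhesion molecules. Of the 4, only Scn4b was called. Scn4b (chromosome 9, 45138395 to 45154152, plus strand), the subunit linked to resurgent sodium current, stood at 26.5 and 20.002 TPM in excitatory and 92.1 and 86.3 TPM in inhibitory libraries. The groups are far apart, 3.83-fold (-1.91 ± 0.16, limma adjusted p = 0.00295). Scn2b lies next to it, with 20613 bases between their annotated starts, and stood at 65.6 and 56.9 against 92.3 and 79.7 TPM (-0.48 ± 0.13, limma adjusted p = 0.0655). Scn3b stood at 90.8 and 99.8 against 77.3 and 65.3 TPM, apart in the other direction and not called (0.42 ± 0.12, limma adjusted p = 0.0865). As a share of all beta subunit transcripts, Scn4b went from 7.12% ± 1.00 in excitatory to 23.3% ± 1.49 in inhibitory nuclei and Scn3b from 29.4% ± 3.67 to 18.6% ± 0.167 (SD, n = 2). The ratio of Scn4b to Scn3b was 0.292 and 0.2004 in excitatory and 1.19 and 1.32 in inhibitory libraries. Scn4b is an abundant transcript of striatal and Purkinje neurons. The striatal and Purkinje markers were at 538 to 569 and 492 to 497 TPM in excitatory against 1713 to 1753 and 994 to 1054 TPM in inhibitory libraries, as given above, and the part of these cells in the Scn4b difference was not tested.

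FGF homologous factors bind the intracellular end of sodium channels and shift their inactivation. All 4 stood higher in both inhibitory than in both excitatory libraries, as did 33.3% of all genes tested. Of the 4, 2 were called, against 6.62% of all genes called toward inhibitory nuclei. Fgf13 (chromosome X, 59062145 to 59568071, minus strand) stood at 25.1 and 21.5 against 39.5 and 45.1 TPM (-0.83 ± 0.15, limma adjusted p = 0.0199). Fgf11 (chromosome 11, 69796068 to 69801857, minus strand) was the lowest of the 4, at 5.40 and 8.56 against 16.1 and 21.4 TPM (-1.32 ± 0.27, limma adjusted p = 0.0316). The calls of Fgf11 and Fgf13 were both lost without the trend (0.0604 and 0.0585). Fgf14 stood at 76.2 and 69.3 against 87.2 and 93.4 TPM (-0.31 ± 0.11, adjusted p = 0.126). Fgf12, the most abundant, stood at 149.5 and 146 against 159 and 167 TPM, with an interval of the log2 fold change from -0.37 to 0.09. Fgf12 made up 59.0% ± 0.828 of the 4 in excitatory and 51.9% ± 1.07 in inhibitory nuclei.

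Of the high-voltage calcium channel pores, Cacna1e alone was called, and it was higher in excitatory nuclei. Cacna1e, the R-type channel of dendrites and spines (chromosome 1, 154390731 to 154884501, minus strand), stood at 311 and 355 TPM in excitatory and 220.1 and 242 TPM in inhibitory libraries. These groups do not overlap, with a 1.44-fold difference (0.52 ± 0.11, limma adjusted p = 0.0360, and 0.137 without the trend). Cacna1a and Cacna1b encode the P/Q-type and N-type channels that trigger transmitter release. Cacna1a stood at 245 and 332 against 249 and 328 TPM, a spread within each group that exceeds the difference between them (interval -0.47 to 0.47). Cacna1b stood at 148 and 169 against 155 and 161 TPM (interval -0.26 to 0.27). The fitted direction of both depended on the scaling, since Cacna1a turned positive with median ratio scaling and Cacna1b negative with quantile normalization. The L-type genes Cacna1c, at 162 and 194 against 178 and 196 TPM, and Cacna1d, at 166 and 192 against 129 and 169.8 TPM, overlapped between groups too. Cacna1f, the L-type channel of the retina, stood at 1.21 to 4.77 TPM, and Cacna1s of skeletal muscle stood at or under 0.336 TPM and was not tested. Of the summed high-voltage pore transcripts, Cacna1e made up 29.3% ± 1.06 in excitatory and 22.8% ± 1.12 in inhibitory nuclei (SD, n = 2). The share of Cacna1a was 23.6% and 26.7% against 26.7% and 29.9%.

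T-type channels open at low voltage and support burst firing, for example in thalamic neurons. None of the 3 was called. Cacna1g stood at 101 and 124 against 107 and 153 TPM, with overlapping groups and an interval of the log2 fold change from -0.66 to 0.28. Cacna1h, at 48.9 and 67.0 against 44.8 and 53.3 TPM, overlapped as well (-0.21 to 0.67). Cacna1i stood slightly higher in both excitatory libraries, at 38.9 and 45.2 against 34.6 and 37.3 TPM (-0.10 to 0.54). The summed T-type transcripts were 189 and 236 against 186 and 244 TPM. Thalamic markers summed to 185 to 196 TPM in excitatory and 462 to 556 TPM in inhibitory libraries, and the part of these cells in the T-type levels was not tested.

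The alpha2delta subunits, extracellular partners that carry calcium channels to the surface and to synapses and include the targets of gabapentin, held the largest difference of the channel genes and calls in both directions. Cacna2d2 (chromosome 9, 107399612 to 107529343, plus strand) stood at 11.0 and 9.35 TPM in excitatory and 73.8 and 86.0 TPM in inhibitory libraries. The groups differ 7.86-fold (-2.86 ± 0.15, limma adjusted p = 0.00152). It shares 82 exon bases with the opposite-strand transcript Gm17141, which stood at 0.261 and 0.519 against 6.34 and 5.70 TPM. Cacna2d1 (chromosome 5, 15934691 to 16374511, plus strand) went the other way, at 345 and 364 against 201 and 175 TPM, with no overlap and a 1.89-fold difference (0.91 ± 0.11, limma adjusted p = 0.00633). Cacna2d3 stood at 199 and 224 against 217 and 232 TPM, and its groups overlapped (interval -0.34 to 0.17). Cacna2d4, found mainly in retina, stood at 0.893 to 4.16 TPM. The sum of the class was 558 and 599 TPM in excitatory and 493 and 497 TPM in inhibitory nuclei. Cacna2d1 made up 61.4% ± 0.752 of it in excitatory and 38.0% ± 3.80 in inhibitory nuclei, Cacna2d2 1.77% ± 0.288 and 16.1% ± 1.66, and Cacna2d3 36.6% ± 1.26 and 45.3% ± 1.82 (SD, n = 2). Per library, the ratio of Cacna2d2 to Cacna2d1 was 0.0318 and 0.0257 in excitatory and 0.368 and 0.490 in inhibitory nuclei. Cacna2d2 is a prominent transcript of Purkinje cells, whose markers summed to 492 to 497 against 994 to 1054 TPM, and the part of these cells was not tested.

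Calcium channel beta subunits bind the pore from inside the cell. Of the 4, 3 were called, against 12.0% of all genes tested and 15.6% of the genes that pass a filter of at least 5 TPM. Cacnb2 (chromosome 2, 14603088 to 14987908, plus strand) stood at 166 and 152 TPM in excitatory and 260.3 and 265 TPM in inhibitory libraries, 1.65-fold apart (-0.72 ± 0.10, limma adjusted p = 0.00911). Cacnb1 (chromosome 11, 98001508 to 98023034, minus strand) was higher in excitatory nuclei, at 72.7 and 77.2 against 52.1 and 49.99 TPM (0.55 ± 0.11, limma adjusted p = 0.0268). So was Cacnb3 (chromosome 15, 98630840 to 98644529, plus strand), at 67.0 and 70.1 against 36.6 and 49.1 TPM (0.68 ± 0.16, limma adjusted p = 0.0456, and 0.0573 with a pseudocount of 0.1). Without the trend, Cacnb1 (0.103), Cacnb2 (0.0599) and Cacnb3 (0.124) were not called. Cacnb1 shares 80 exon bases with the opposite-strand transcript Gm11629, which stood at 0.780 to 1.55 TPM. Cacnb2 shares 239 with the opposite-strand transcript Gm13269, at 41.2 and 35.6 TPM in excitatory against 49.0 and 44.5 TPM in inhibitory libraries. It shares 111 with Gm10848, at 10.1 and 14.2 against 20.03 and 21.8 TPM, so both stood higher in inhibitory libraries, as Cacnb2 did. Cacnb4 stood at 127 and 150.4 against 125 and 115 TPM, narrowly apart and not called (interval -0.08 to 0.50). The class summed to 433 and 449.9 TPM in excitatory and 474 and 479 TPM in inhibitory nuclei. Cacnb2 took 36.1% ± 3.23 of it in excitatory and 55.1% ± 0.249 in inhibitory nuclei, where each of the others took a smaller share. The ratio of Cacnb2 to Cacnb3 was 2.48 and 2.17 in excitatory and 7.11 and 5.395 in inhibitory libraries.

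**Figure D4:**
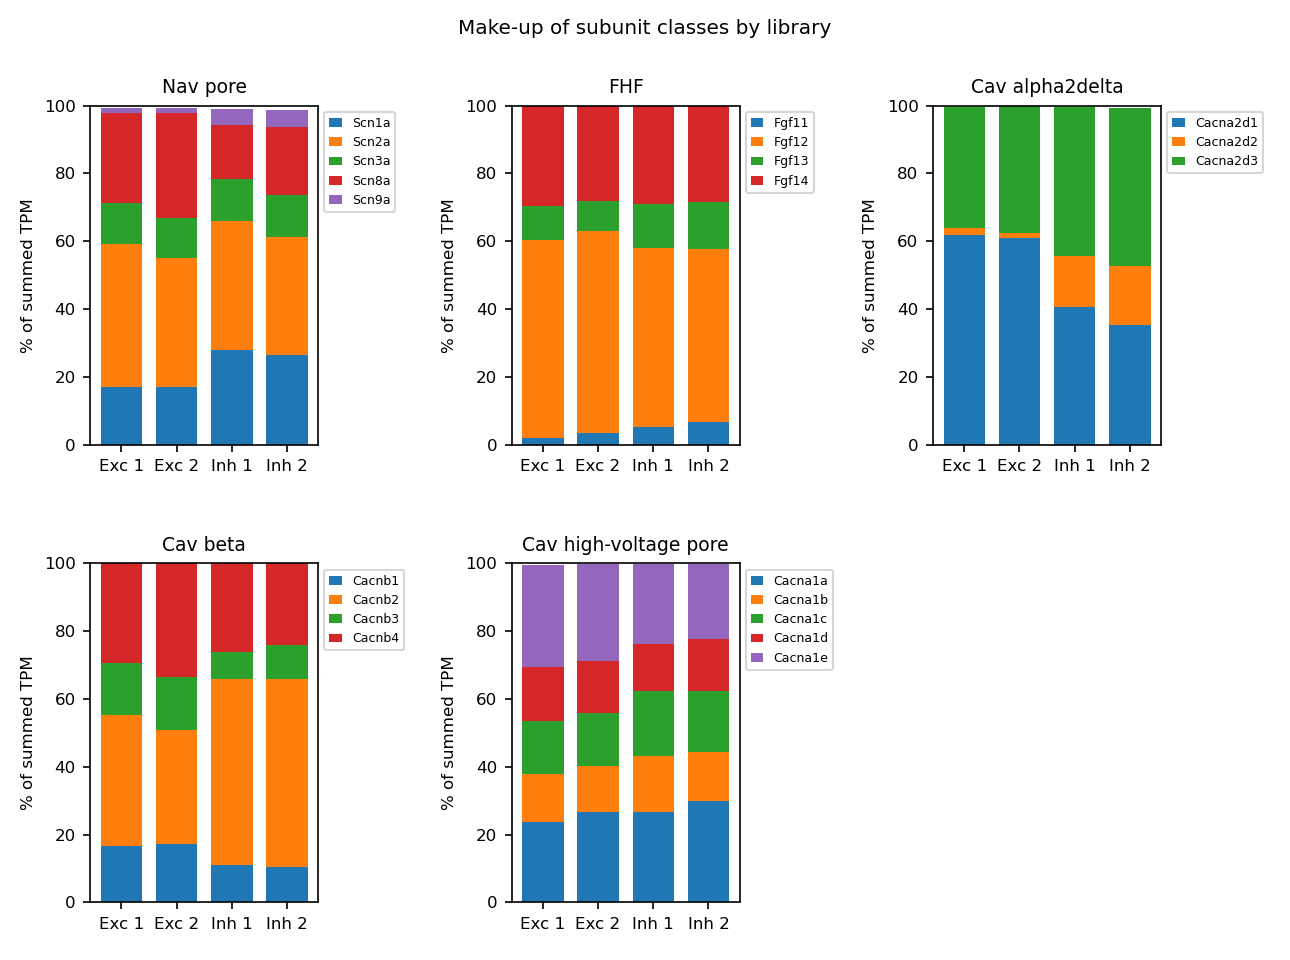
Share of each gene in the summed TPM of its class, for 5 classes, in percent, with 1 bar per library (Exc, excitatory; Inh, inhibitory); genes under 1% in every library are not drawn, so some bars end just below 100%. Cacna2d2 widens from 1.77% to 16.1% and Cacnb2 from 36.1% to 55.1% between excitatory and inhibitory nuclei.

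No gene of the NALCN complex was called. Nalcn, the leak pore, stood at 89.9 and 98.8 TPM in excitatory and 121 and 125 TPM in inhibitory libraries (-0.38 ± 0.10, limma adjusted p = 0.0647, and 0.0367 with quantile normalization). Its groups are apart by 1.31-fold. The partners Unc79, at 158 and 182 against 148 and 156 TPM, and Unc80, at 310.2 and 365 against 292 and 317 TPM, had intervals of the log2 fold change of -0.11 to 0.43 and -0.15 to 0.43. The groups of Unc79 were narrowly apart and those of Unc80 overlapped.

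Genes of proteins that work with these channels were read from lists for calcium, sodium and leak channels. They held 53 tested genes, of which 9 were called toward excitatory nuclei, 4 toward inhibitory nuclei and 40 not at all. Their median log2 fold change was 0.05. The called share was 24.5%, against 12.0% of all genes and 15.6% of the genes that pass a filter of at least 5 TPM. Median ratio scaling called 12 toward excitatory and 3 toward inhibitory nuclei. Of 27 calcium channel partners, 6 were higher in excitatory nuclei and 2 in inhibitory nuclei, against 5.43% and 6.62% of all genes tested. Those higher in excitatory nuclei included Stx1a, a release machinery gene that also binds calcium channels (2.02 ± 0.15, limma adjusted p = 0.00247), the active zone genes Rimbp2 (0.89), Erc2 (0.78) and Rims1 (0.45), and the calcium sensor Cabp1 (0.77). Cachd1, an alpha2delta-like gene (-0.97), and Stac, an adaptor of L-type channels (-1.11), were higher in inhibitory nuclei. Stx1a stood at 83.5 and 94.4 against 18.7 and 23.8 TPM, the largest difference toward excitatory nuclei on these lists.

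Of 23 sodium channel partners, 2 were called toward excitatory and 1 toward inhibitory nuclei, about as often as all genes tested (5.43% and 6.62%). Nrcam (0.83), an adhesion gene of nodes and initial segments, and Tnr (0.54), a matrix protein gene, were higher in excitatory nuclei. Ptprz1 (-1.06), a receptor phosphatase gene, was higher in inhibitory nuclei. The fourth by p was the kinase subunit gene Csnk2a2 (0.46, limma adjusted p = 0.0608). The scaffold genes of the axon initial segment were not called: Ank3 stood at 527 and 617 against 486 and 626 TPM and Sptbn4 at 122 and 131 against 103 and 143 TPM, both overlapping. Of 4 leak channel partners tested, the muscarinic receptor gene Chrm3 (0.90) and Stx1a, also counted above, were higher in excitatory nuclei. Tacr1, the substance P receptor gene, stood at 1.72 and 1.61 against 11.5 and 10.4 TPM (-2.16 ± 0.25, limma adjusted p = 0.00602). Fam155a, which encodes a NALCN subunit, stood at 229 and 253 against 208 and 219 TPM (0.17, adjusted p = 0.338).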

How the data were processed

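The authors deposited 1 table of TPM values (not counts, so no count model was used) with 1 column per library, matched to samples by the column name in each description. StringTie 2.2.1, Bowtie2 2.3.5, HISAT2 2.2.1 and fastp 0.23.4 are named, with the build mm10, per the submitters' processing notes; for their roles, the annotation and strand use, nothing was stated. Per the labels' protocols, ribosomal RNA was depleted and libraries were strand-specific. Columns summed to 999833 to 999891.

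The test used log2(TPM + 1) of the 26055 genes that reached 1 TPM in 2 or more libraries, in limma 3.58.1 (R 4.3.3; trended variance prior of 4.04 degrees of freedom beside 2 residual ones), two-sided, adjusted by Benjamini-Hochberg over all genes, and called at an adjusted p under 0.05. The script was tested on simulated data. No pair of libraries was a copy (at most 93 identical values). Folds are ratios of mean TPM and errors are SD over 2 libraries unless named SE. Positions and overlaps came from GENCODE M21 (mm10), which matched all 39 genes; 10 of them share exon bases with a gene on the opposite strand. Upstream windows came from RefSeq (GRCm38.p6).

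Channel genes are given with their values, and of partner lists the 4 with the smallest p and every called gene, except that a few genes are counted but not reported here; Ank3 and Sptbn4 were chosen after their values were seen. The genes, lists and tests were chosen with earlier results of these data known. Alternatives were pseudocounts of 0.1 and 5, no filter, a filter of 5 TPM, no trend, median ratio scaling, quantile normalization, a replicate block and each library left out; reapplying the filter with a library left out was added after seeing the data. Tables and plots used Python 3.11.15 and matplotlib 3.10.9.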

Additional observations from a re-analysis of the deposited data

How the results depend on the processing

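The 12 called channel genes kept their direction under every alternative run. All 12 stayed called with median ratio scaling (5 toward excitatory and 7 toward inhibitory), quantile normalization (5 and 8), a pseudocount of 5 (5 and 8) and a filter of 5 TPM (5 and 7). A pseudocount of 0.1 called 3 and 7. Without the variance trend limma called 1 and 4, of which 4 were among the 12, and 3 and 4 partner genes. With no filter it called 0 and 0 channel genes (6 and 12 at an unadjusted p under 0.05) and 0 and 0 partner genes, and of all 55487 genes it called 47 and 93. On the same genes with 1 library left out, counts ranged from 0 to 0 in both directions for channel genes, for partner genes and for all 26055 genes, with 1 residual degree of freedom and the lone library assumed to vary like the other group. With the filter applied again, chosen after seeing the data, limma called 3, 1, 1 and 3 channel genes toward excitatory nuclei and 6, 6, 7 and 5 toward inhibitory nuclei (without excitatory replicate 1 or 2, or inhibitory replicate 1 or 2), and 6, 5, 4 and 7 and 3, 2, 2 and 2 partner genes; over all genes these fits called 604 to 1039 and 800 to 1085. The causes of these differences were not tested.

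Directions reversed only for genes that were not called, of which those reported are given. With median ratio scaling the log2 fold change was 0.071 for Cacna1a and 0.0028 for Cacna1c, and with quantile normalization it was -0.030 for Cacna1b. With 1 library left out, with either filter, it ranged from -0.22 to 0.22 for Cacna1a (0.19 without inhibitory replicate 2), -0.091 to 0.0998 for Cacna1b (-0.024 without inhibitory replicate 1), -0.20 to 0.055 for Cacna1c, -0.45 to 0.068 for Cacna1g, -0.17 to 0.00019 for Cacna2d3 and -0.011 to 0.16 for Scn2a.

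With the replicate block, 5 and 9 channel genes and 14 and 5 partner genes were called, Scn2b (adjusted p = 0.0177, limma) and Nalcn (0.0264) being added. The labels link libraries of the 2 groups only by replicate number, so whether they are paired is not known. Deviations of replicate 1 from the group mean correlated at 0.0957 between excitatory and inhibitory libraries across 26055 genes. Some channel classes moved together from replicate 1 to 2, such as high-voltage calcium pores (1037 to 1245 and 932 to 1098 TPM). Others did not, such as sodium channel pores (865 to 884 and 928 to 902 TPM). Over all genes the block called 1946 and 2382, against 1414 and 1725 in the main fit. TPM keeps no depth, so its limits on low genes cannot be given.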
